A study of Mus musculus with 6 samples.

Results

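Genes that mark tissue macrophages, namely Csf1r, Cd68, C1qa, C1qb, C1qc, Fcer1g, Tyrobp, Mrc1, Ctss and Laptm5, were looked up by symbol among the probes of a mouse genome survey array hybridized with RNA of the embryonic midgut. Of the 10 genes, 6 have a probe of that name, with 1 probe each among the 33012 probes and 13840 named genes of the array. Csf1r, Cd68, Fcer1g and Tyrobp have no probe of that name in the annotation used and were not analysed here. The arrays compared the distal part of the midgut at E13.5 between 3 Id2-/- samples, labelled Id2 KO, and 3 Id2+/+ samples, labelled Id2 wild type, from littermate embryos. The study asked which genes change in the developing small intestine when Id2 is lost. The mutation is carried in the germline, so Id2-/- embryos lack Id2 in every tissue, and the line was kept on an inbred or on a mixed background with NMRI. The sources used here do not say which background the arrayed embryos had or how many embryos went into a sample, so the p-values cover only the variation among these 6 samples, which may be technical. Id2 itself was not analysed here, and the genotype of each sample is the one on its label. RNA of the whole tissue was measured, and fewer macrophages cannot be told apart from less RNA per macrophage.

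Macrophages seed the fetal gut before birth from precursors of the yolk sac and fetal liver, and they clear dying cells while the tissue takes shape. Their survival depends on the receptor Csf1r, they take up material through receptors such as Mrc1, and they degrade it in lysosomes that hold Ctss, Cd68 and Laptm5. They are also a main source of complement C1q, whose A, B and C chains are the products of C1qa, C1qb and C1qc and assemble into a single secreted molecule that binds dying cells and immune complexes. Fcer1g and Tyrobp are signaling adaptors that pair with Fc receptors and other activating receptors of myeloid cells. Id2 is an inhibitor of basic helix-loop-helix E proteins and is needed for several lymphoid lineages.

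The authors divided the signal of each probe by a constant of its array, between 708.0 and 1010.4, that equals the median intensity of the unflagged spots, and values below are log2 of that median-normalized signal. A signal-to-noise score of at least 3 is referred to as above background, which held for 13890 to 16539 unflagged probes per array. Tested were 12741 probes, among them 5 of the 6 macrophage genes. They had a flag under 5000, here called unflagged, on all 6 arrays and stood above background throughout Id2-/- or throughout Id2+/+ samples. In both genotypes the array numbered 1 differed from the rest. Across the tested probes the signals of these arrays had r = 0.984 between them and r from 0.909 to 0.931 with the remaining 4, among which r ran from 0.979 to 0.988. The arrays numbered 1 also deviated together from their genotype means (r = 0.838), while the numbers 2 and 3 were not told apart. The deviations of the Id2-/- arrays numbered 2 and 3 from their genotype mean correlated with that of the Id2+/+ array numbered 2 at 0.644 and 0.638. With the deviation of the Id2+/+ array numbered 3 the values were 0.549 and 0.579. Differences are given for each same-numbered pair, by the number on the label, as well as between genotype means. The median difference over all tested probes, Id2-/- minus Id2+/+, was 0.35, -0.04 and -0.19 in the pairs numbered 1, 2 and 3. Pair values of the 5 tested macrophage genes are given both as deposited and relative to these medians. Pair values of other genes and lists are as deposited unless stated, so they include the shift of the median probe.

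C1qa, C1qb, C1qc, Mrc1 and Ctss were above background on every array of both genotypes, and none differed between Id2-/- and Id2+/+ midgut by more than the spread between arrays. All 5 had slightly lower means in Id2-/- samples, by 0.09 to 0.24 on the log2 scale. Limma with Benjamini-Hochberg adjustment over all tested probes called 0 of the 5, against 0.0% of all tested probes called higher and 0.0% called lower. At an unadjusted p under 0.05 there were 0 of the 5 macrophage genes and 234 of the 12741 probes. With the array number as a block, limma again called 0 of the 5, against 1.06% of tested probes called higher and 1.12% called lower. The sizes of the 5 differences ranked between the 37.1 and 75.5 percentiles of the absolute differences of all tested probes.

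**Figure D1:**
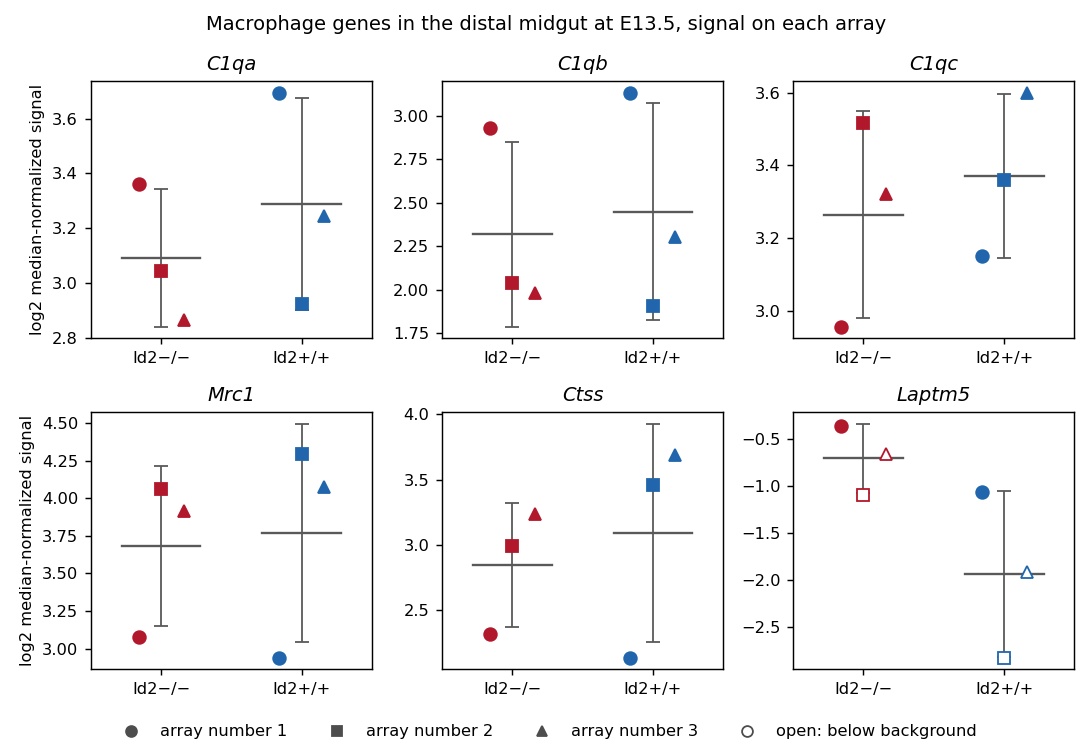
Log2 median-normalized signal (vertical axis, a separate scale for each gene) of the 6 macrophage genes with a named probe on the 3 Id2-/- and 3 Id2+/+ arrays. Points are arrays, with shapes for the array number and open points below background, horizontal bars are means and error bars the SD. The genotypes overlap for every gene, and the number 1 array is the highest of its genotype for C1qa, C1qb and Laptm5 and the lowest for C1qc, Mrc1 and Ctss.

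The 3 C1q genes lie next to each other in the RefSeq gene table of GRCm38.p6, on mouse chromosome 4 in the order C1qb, C1qc, C1qa with no other protein-coding gene between them. Of the protein-coding genes on either side, Epha8 and Zbtb40 have a named probe that did not pass the filter, and Ephb2 and Lactbl1 have none. C1qa, the gene of the A chain, had log2 signals of 3.36, 3.05 and 2.87 on the Id2-/- arrays numbered 1, 2 and 3, against 3.69, 2.92 and 3.25 on the Id2+/+ arrays. The genotypes overlap, and the Id2-/- value lies above its same-numbered partner only for number 2. The means were 3.09 ± 0.25 in Id2-/- and 3.29 ± 0.39 in Id2+/+ samples (SD, n = 3 each), a difference of -0.20 (standard error 0.29), or 0.873-fold with a 95% confidence interval from 0.545 to 1.40.

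C1qb, the gene of the B chain, had log2 signals of 2.93, 2.04 and 1.98 on the Id2-/- arrays, against 3.13, 1.91 and 2.30 on the Id2+/+ arrays. In both genotypes the number 1 array was about 1 log2 unit above the others, and the genotypes overlap. The means were 2.32 ± 0.53 in Id2-/- and 2.45 ± 0.63 in Id2+/+ samples (SD, n = 3 each), a difference of -0.13 (standard error 0.41) and a fold of 0.914 with an interval from 0.468 to 1.78. C1qc, the gene of the C chain, had log2 signals of 2.96, 3.52 and 3.32 on the Id2-/- arrays, against 3.15, 3.36 and 3.60 on the Id2+/+ arrays. Here the number 1 array was the lowest of each genotype, the reverse of C1qa and C1qb. The means of C1qc were 3.26 ± 0.28 in Id2-/- and 3.37 ± 0.23 in Id2+/+ samples (SD, n = 3 each), a difference of -0.11 (standard error 0.26), a fold of 0.929 with an interval from 0.605 to 1.43. The adjusted p from limma was 1.0 for each of the 3 genes.

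Within each pair the differences of the 3 C1q genes had the same sign. In the pair numbered 1 the log2 differences were -0.33 for C1qa, -0.20 for C1qb and -0.19 for C1qc. In the pair numbered 2 they were 0.12, 0.13 and 0.16 in the same order, and in the pair numbered 3 they were -0.38, -0.32 and -0.28. The span of the 3 genes within a pair was 0.14, 0.035 and 0.097 for the numbers 1, 2 and 3, while the differences of one gene ranged over more than that from pair to pair. The span between Mrc1 and Ctss was 0.047, 0.23 and 0.29, smaller than that of the C1q genes in the pair numbered 1. How often other probes lie this close was not counted. Relative to the median probe of each pair, the C1q genes lay at -0.68 to -0.54 in the pair numbered 1, at 0.16 to 0.19 in the pair numbered 2 and at -0.18 to -0.09 in the pair numbered 3. The pair numbered 2 thus had the opposite sign to the other 2 on both scales. That sign depends on the matching by number, and the correlations did not separate the arrays numbered 2 and 3.

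**Figure D2:**
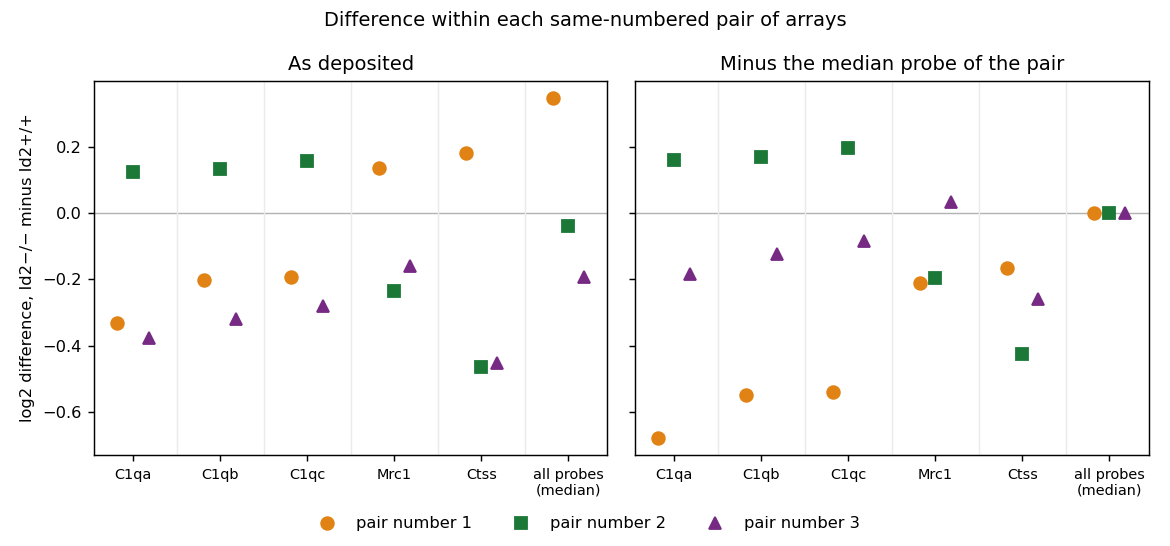
Log2 difference, Id2-/- minus Id2+/+ (vertical axis), in each same-numbered pair of arrays for the 5 tested macrophage genes and for the median of all tested probes, as deposited (left) and after subtracting that median (right). The 3 C1q genes have the same sign within each pair, from 0.12 to 0.16 in the pair numbered 2 as deposited. Ctss is the gene whose 3 points all lie below 0 on the right.

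The sequences upstream of C1q genes and of Mrc1 are shown for GAGGAA, letters of the PU.1 motif. PU.1 is the transcription factor of myeloid cells that Spi1 encodes. Each line gives the 250 bases before the annotated start of a gene from RefSeq on GRCm38.p6, 5′ to 3′ on the strand of the gene, with GAGGAA or its reverse complement TTCCTC in capitals. C1qb (chr4:136886201-136886450, minus strand) and C1qc (chr4:136892915-136893164, minus strand) are the C1q genes with an entry in the promoter table, and Mrc1 (chr2:14229164-14229413, plus strand) is the tested member with the most matches.
C1qb: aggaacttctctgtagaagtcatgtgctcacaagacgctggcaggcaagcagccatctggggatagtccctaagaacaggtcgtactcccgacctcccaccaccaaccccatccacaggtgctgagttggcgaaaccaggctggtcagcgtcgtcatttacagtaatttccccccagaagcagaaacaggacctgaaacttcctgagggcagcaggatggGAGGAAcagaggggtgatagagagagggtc
C1qc: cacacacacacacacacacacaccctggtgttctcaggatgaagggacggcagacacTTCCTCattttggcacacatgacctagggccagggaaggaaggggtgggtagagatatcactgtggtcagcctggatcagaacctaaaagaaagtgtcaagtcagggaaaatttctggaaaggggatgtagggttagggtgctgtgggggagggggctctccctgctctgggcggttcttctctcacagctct
Mrc1: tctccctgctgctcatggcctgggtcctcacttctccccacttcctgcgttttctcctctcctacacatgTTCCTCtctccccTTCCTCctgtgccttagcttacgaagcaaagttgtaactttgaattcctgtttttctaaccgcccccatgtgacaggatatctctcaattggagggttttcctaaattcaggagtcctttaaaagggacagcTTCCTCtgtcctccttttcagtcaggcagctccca
The match begins 30 bases before the start of C1qb, 193 bases before that of C1qc, and 180, 167 and 35 bases before that of Mrc1. Over windows of 300 bases, from 250 before to 50 after a start, the letters were found on either strand in 6 of the 7 macrophage genes with an entry (C1qb, C1qc, Mrc1, Ctss, Laptm5 and Cd68, not Fcer1g) and in 28.3% of all 32851 windows of the table. A match is a stretch of letters, and binding was not measured.

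Mrc1 encodes the mannose receptor, which takes up glycoproteins with terminal mannose. Its log2 signals were 3.08, 4.06 and 3.92 on the Id2-/- arrays numbered 1, 2 and 3, against 2.94, 4.29 and 4.08 on the Id2+/+ arrays. The number 1 array was the lowest in each genotype by about 1 log2 unit, and the genotypes overlap. The means were 3.68 ± 0.53 in Id2-/- and 3.77 ± 0.73 in Id2+/+ samples (SD, n = 3 each), a difference of -0.09 (standard error 0.44). The fold was 0.942 with a 95% interval from 0.460 to 1.93. By pair the difference was 0.14, -0.23 and -0.16, and relative to the median probe it was -0.21, -0.20 and 0.03.

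Ctss encodes cathepsin S, a cysteine protease that trims the invariant chain of MHC class II. Its log2 signals were 2.32, 2.99 and 3.23 on the Id2-/- arrays, against 2.14, 3.46 and 3.69 on the Id2+/+ arrays. The number 1 array was again the lowest of each genotype. The means were 2.85 ± 0.47 in Id2-/- and 3.09 ± 0.84 in Id2+/+ samples (SD, n = 3 each), a difference of -0.24 (standard error 0.46), the largest of the 5, with a fold of 0.844 and a 95% interval from 0.397 to 1.80. By pair it was 0.18, -0.46 and -0.45. Relative to the median probe it was -0.16, -0.42 and -0.26, which makes Ctss the only 1 of the 5 below that median in all 3 pairs, against 14.9% of all tested probes. Without both arrays numbered 1 the difference of Ctss was -0.46 (limma adjusted p = 0.377), and with the array number as a block and quantile normalization it was -0.27 with an interval from -0.57 to 0.04 (limma adjusted p = 0.720).

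As deposited, 0 of the 5 genes were lower in Id2-/- samples in all 3 pairs and 0 were higher in all 3, against 5.64% and 11.8% of all tested probes. In the blocked fit limma estimated an infinite prior, so that every probe had the same standard error of 0.27, and the interval of Ctss ran from -0.78 to 0.29. A doubling lay outside the 95% interval of each of the 5 genes in the fit without block, whereas a reduction to 0.5-fold lay inside it for C1qb, Mrc1 and Ctss. Each of the 5 differences turned positive when a single array was left out, by at most 0.22, without the Id2+/+ array numbered 1 for C1qa, without that array or the Id2-/- array numbered 2 or 3 for C1qb, without the Id2-/- array numbered 1 or the Id2+/+ array numbered 3 for C1qc, Mrc1 and Ctss, and without the Id2+/+ array numbered 2 for Mrc1.

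**Figure D3:**
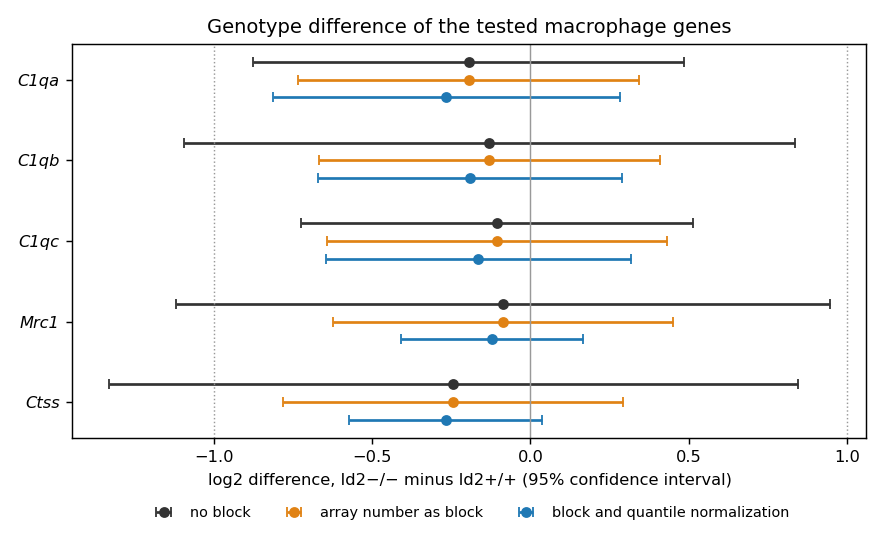
Log2 difference, Id2-/- minus Id2+/+ (horizontal axis), of the 5 tested macrophage genes with 95% confidence intervals from limma without a block, with the array number as a block, and with the block after quantile normalization. Dotted lines mark a 2-fold difference in either direction, and all 15 intervals include 0.

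For the macrophage genes the number 1 arrays lay farther from the other arrays of their genotype than the genotype means lay apart, and in both directions. The number 1 array minus the mean of the other 2 was 0.40 in Id2-/- and 0.61 in Id2+/+ samples for C1qa, and 0.92 in Id2-/- and 1.03 in Id2+/+ samples for C1qb. It was -0.46 in Id2-/- and -0.33 in Id2+/+ samples for C1qc, the opposite sign to the other 2 chains. For Mrc1 it was -0.91 in Id2-/- and -1.24 in Id2+/+ samples, and for Ctss -0.79 in Id2-/- and -1.43 in Id2+/+ samples. Over all tested probes the median of this shift was 0.12 in Id2-/- and -0.28 in Id2+/+ samples, and the central 90% of probes ran from -0.96 to 1.81 in Id2-/- and from -1.58 to 1.51 in Id2+/+ samples. The shifts of the 5 genes lie within these ranges. The number 1 array was the highest of its genotype in both genotypes for 2 of the 5 genes, against 29.8% of tested probes, and the lowest in both for 3 of the 5, against 33.7%. What the samples numbered 1 share is not stated, and its part in these values was not tested.

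**Figure D4:**
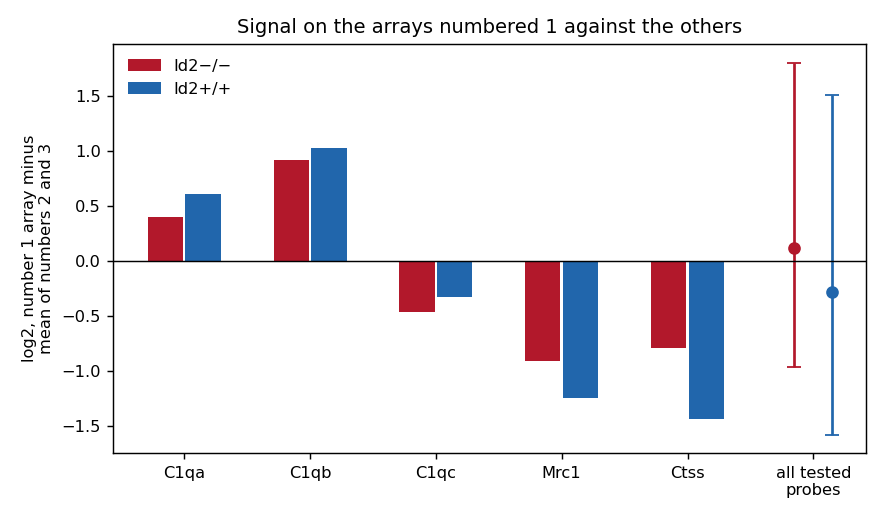
Log2 signal of the number 1 array minus the mean of the arrays numbered 2 and 3 (vertical axis) within Id2-/- and Id2+/+ samples for the 5 tested macrophage genes. The points at the right give the median over all tested probes with bars from the 5th to the 95th percentile, and C1qa and C1qb lie above 0 while C1qc, Mrc1 and Ctss lie below it in both genotypes.

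Laptm5, which encodes a lysosomal membrane protein of hematopoietic cells, was close to background. Its signal-to-noise score was 5.55, 1.75 and 2.46 on the Id2-/- arrays numbered 1, 2 and 3, against 3.49, 0.52 and -0.48 on the Id2+/+ arrays, so that only the number 1 array of each genotype was above background and the gene was not tested. The log2 signals were -0.36, -1.10 and -0.66 on the Id2-/- arrays and -1.07, -2.83 and -1.91 on the Id2+/+ arrays. The Id2-/- value was the higher in each pair, while the lowest Id2-/- array lay just below the highest Id2+/+ array. In the pair numbered 1, where both arrays were above background, the median-normalized signal was 0.781 in the Id2-/- and 0.478 in the Id2+/+ sample, a log2 difference of 0.71, and 0.36 relative to the median probe. Without the background filter the difference of the means was 1.23 (standard error 0.50, limma adjusted p = 1.0, unadjusted p = 0.0399), a value that rests on 4 arrays below background.

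Detection of macrophage and leukocyte markers was counted beside that of all probes. Of 42 further macrophage genes with a named probe, 15 were above background on every array and 8 on none. Of 25 pan-leukocyte genes with a named probe, 7 were above background on every array and 7 on none. Over all unflagged probes, 34.8% were above background on every array, a share close to that of the further macrophage genes. The share of all probes above background on no array was not counted. The genes named next were picked after their values were seen. Adgre1, which encodes the macrophage surface protein F4/80, averaged 4.89 ± 0.10 in Id2-/- and 4.93 ± 0.35 in Id2+/+ samples (SD, n = 3 each), and Lyz2, which encodes lysozyme of myeloid cells, averaged 4.34 ± 0.21 in Id2-/- and 4.29 ± 0.22 in Id2+/+ samples. Both were above background on every array. Spi1, Itgam, Itgb2, Cybb and Ccr2 were above background on none of the 6 arrays, and Ptprc, the pan-leukocyte gene of CD45, on 0 Id2-/- arrays and 1 Id2+/+ array. Of the 42 further macrophage genes, 18 were tested. The summed median-normalized signal of the 18 was between 350.3 and 357.4 on the Id2-/- arrays and between 305.7 and 395.3 on the Id2+/+ arrays. The genes of highest signal weigh most in this sum, which is not a measure of macrophage content. They were Tgfbr1, Tmem119 and Cyba, with log2 means of 6.71, 5.59 and 5.42 in Id2-/- and 6.76, 5.44 and 5.52 in Id2+/+ samples. Their median difference was -0.03, against 0.04 for all tested probes, and 4 of the 18 were lower and 2 higher in all 3 pairs, against 5.64% and 11.8% of all tested probes. The 4 were H2-Ab1, Cd83, Aif1 and Ms4a6c. H2-Ab1 and Cd83 were tested only through the Id2+/+ samples, where they are high, which favours this direction. Limma called 0 of the 18 without the block, and with it 0 higher and 1 lower, against 1.06% and 1.12% of all tested probes.

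The gene called lower was H2-Ab1, which encodes the beta chain of an MHC class II molecule of antigen-presenting cells. Its log2 signals averaged -0.19 ± 0.54 in Id2-/- and 0.92 ± 0.60 in Id2+/+ samples (SD, n = 3 each), a difference of -1.11 (limma adjusted p = 0.00421 with the block and 1.0 without it). It was above background on 1 Id2-/- array and on all 3 Id2+/+ arrays, so it passed the filter only through the genotype where it is high, which favours this direction, and the size of the difference rests on 2 Id2-/- values below background. Its pair differences were -0.08, -2.31 and -0.96, with a standard error of 0.65, whereas the blocked fit used the standard error of 0.27 shared by every probe. With the block and quantile normalization the adjusted p from limma was 0.720. Its partner H2-Aa was above background on no array. Aif1, which encodes the cytoskeletal protein Iba1 of macrophages, was lower in Id2-/- samples in each pair, as deposited by -0.32, -0.33 and -0.31. Relative to the median probe of the pair its differences were less even, at -0.67, -0.29 and -0.12. It averaged 1.08 ± 0.12 in Id2-/- and 1.40 ± 0.11 in Id2+/+ samples (SD, n = 3 each), and limma gave an adjusted p of 1.0 with and without the block. Cd83, a surface protein of activated antigen-presenting cells, differed by -0.08, -0.09 and -1.12 in the pairs. It passed background on 2 Id2-/- and 3 Id2+/+ arrays, so it too was tested only through the genotype where it is high.

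Genes of Fc receptor and other tyrosine-based signaling, through which Fcer1g and Tyrobp act, form another list. Of 22 with a named probe 5 were tested, against 52.4% of all named probes, with a median difference of -0.35 and 0 called with or without the block. The median is the value of Blnk, which had a standard error of 0.99. Siglech, at -0.40, passed background on 1 Id2-/- and 3 Id2+/+ arrays. Siglech and Fgr were each tested only through the genotype where they are high. Fcgr3, an Fc receptor that signals through Fcer1g, differed by -0.33 (standard error 0.31), with -0.19, -0.35 and -0.44 in the pairs. Ptpn6, the phosphatase SHP-1 that restrains this signaling, differed by -0.60 (standard error 0.31), with -0.55, -0.54 and -0.69 in the pairs (limma adjusted p = 0.527 with the block and 1.0 without it). Fgr, a Src-family kinase of myeloid cells, had positive differences of 0.69, 1.02 and 0.05 and passed background on 3 Id2-/- and 2 Id2+/+ arrays. Trem2 and Btk were above background on no array and Syk on 1 Id2-/- and 0 Id2+/+ arrays.

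In the remaining pathway lists limma called 0 genes without or with the block. For the CSF1 axis and myeloid factors 8 of 15 genes with a probe were tested, with a median difference of 0.12. Among them Klf4 differed by 0.40, Id1, an Id2 paralog, by 0.53 and Irf8, a factor of monocytes and macrophages above background on 2 Id2-/- and 3 Id2+/+ arrays, by -0.42 (standard error 0.33). Irf8 was tested only through its Id2+/+ arrays, where it is high, which favours this direction. Il34, a ligand of Csf1r, was above background on no array. For complement 7 of 17 genes were tested, with a median of 0.00. The serine protease gene C1ra, whose product binds C1q, passed background on 1 Id2-/- and 2 Id2+/+ arrays, too few to be tested, and Calr, which encodes the C1q-binding chaperone calreticulin, differed by 0.31 (standard error 0.31). Mbl2 and Cfb, which encode proteins of the lectin and the alternative pathway, differed by -0.71 (standard error 0.36) and -0.41 (standard error 0.55), and Mbl2 was tested only through its Id2+/+ arrays, since 1 of its 3 Id2-/- arrays was below background. For the lysosome 24 of 29 genes were tested, with a median of 0.03, and Ctsh, another cysteine cathepsin, was lower in all 3 pairs, by -0.39, -0.92 and -0.20 (limma adjusted p = 1.0 without and 0.866 with the block). Scarb2, a lysosomal membrane protein gene, and Asah1, the gene of acid ceramidase, differed by 0.23 and -0.22. For scavenger and endocytic receptors 8 of 19 were tested, with a median of 0.02, and Lrp1, Mertk and Axl, the last 2 being receptors for dying cells, differed by 0.34, 0.25 and 0.08. Cd163, Marco and Cd209a were above background on no array. For pan-leukocyte genes 8 of 25 were tested, with a median of -0.05. Among these Evi2a differed by -0.79 (standard error 0.25), with -0.80, -1.17 and -0.40 in the pairs and an adjusted p of 0.130 with the block and 1.0 without it in limma. It passed background on 2 of the Id2-/- arrays and all 3 Id2+/+ arrays and so, like H2-Ab1, entered the test only through the genotype where it is high. Lcp1, which encodes the actin-bundling protein plastin of leukocytes, differed by -0.31 (standard error 0.28).

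Markers of other cells were read alongside, since they share the tissue with macrophages. Of lymphoid genes with a probe 1 of 12 was tested and 7 were above background on no array, where 52.4% of all named probes were tested, and that 1 gene, Kit, is also expressed outside the lymphoid lineage. Of granulocyte and mast cell genes 4 of 14 were tested, with a median difference of 0.07, and Mpo, which passed background on 3 Id2-/- but 2 Id2+/+ arrays, and Tpsb2 differed by 0.32 and 0.17. Mpo was tested only through its Id2-/- arrays, where it is high. Red cell genes had a median difference of 0.44, with 0.78, 0.19 and 0.57 in the pairs, over 7 of 13 genes. The 0.44 is the value of Tal1, which passed background on 3 Id2-/- and 2 Id2+/+ arrays. Tal1 was therefore tested only through the genotype where it is high. Hbb-bh1, Car2, Alas2 and Hba-a1 differed by 0.72, 0.29, 0.04 and 0.02. The embryonic globin genes Hba-x and Hbb-y differed by 0.88 and 0.72 (limma adjusted p = 0.0595 with the block and 1.0 without it for Hba-x), and the summed signal of the red cell list was between 1512 and 2352 on the Id2-/- arrays and between 1247 and 1800 on the Id2+/+ arrays. Endothelial genes, over 15 of 21, had a median of 0.39, with 1.04, 0.19 and -0.12 in the pairs. Relative to the median probe these were 0.70, 0.23 and 0.08. Plvap and Robo4 differed by 0.51 and 0.64. Epithelial genes, over 13 of 14, had a median of -0.28, with 0.48, -0.49 and -0.83 in the pairs. Relative to the median probe these were 0.13, -0.45 and -0.64. Krt19 and Cdx2 differed by -0.42 and -0.40. The medians of the lists for platelets, mesenchyme, enteric neural cells, mesothelium and proliferation were 0.12, 0.01, 0.07, 0.06 and 0.14, in that order. The 2 genes with the smallest p in each differed by -0.42 for Lum and 0.39 for Pdgfra in mesenchyme. They differed by 0.26 for Gp9 and -0.02 for Pf4 in platelets, and by 0.31 for Ednrb and -0.10 for Stmn2 in enteric neural cells. In mesothelium they were Krt19, also in the epithelial list, at -0.42 and Wt1 at 0.16. In proliferation they were Ccna2 at 0.21 and Mcm5 at 0.18. Limma called 0 genes of any of these lists with or without the block, and the part of these cells in the macrophage values was not tested.

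The genes whose profile over the 6 arrays was most like the mean of the 5 tested macrophage genes were Fam241b, Aldh1l1, Slc7a8, Smtnl2 and Ddx55, with Pearson correlations between 0.970 and 0.988 over the 6 arrays among 7317 named genes. The 6 points share the shift of the number 1 arrays. None of these genes is in the macrophage or leukocyte lists. The mean log2 signal of the 5 genes was 2.93, 3.13 and 3.06 on the Id2-/- arrays numbered 1, 2 and 3, against 3.01, 3.19 and 3.38 on the Id2+/+ arrays.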

How the data were processed

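Total RNA of each E13.5 distal midgut sample was amplified, labeled and hybridized to a single-color array. Each deposited array file gives the intensity of a probe, that intensity after the authors divided it by the array median, a signal-to-noise score and a flag. The series table holds the same values (largest difference 0). The methods leave out flags under 5000; here flags of 5000 or more marked bad spots, and a score under 3 marked background. The log2 median-normalized signal entered limma 3.58.1 (R 4.3.3), with Benjamini-Hochberg adjustment at 0.05 over 12741 probes. Gene names come from the platform annotation, checked against RefSeq (0 symbols changed). For list genes with more than 1 probe, the tested probe with the highest mean was used. No probe depth is known beyond intensity, and the number of arrays limits the precision.

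The deviation of an array from its genotype mean correlated with that of its same-numbered partner at 0.838, 0.644 and 0.579. Deviations cancel within a genotype, so the shift shared by the number 1 arrays also raises the correlations among the numbers 2 and 3. The 0.644 and 0.579 therefore do not show that the numbers 2 and 3 are pairs, and the deviations of KO3 and WT2 correlated at 0.638. The numbers were treated as pairs by their labels only. The sources do not say what joins samples of one number. The members and lists were chosen with earlier results of these data known. Named are all members, the 3 genes of each pathway list and the 2 of each marker list with the smallest p, genes called with the block, and the 5 most like the members. Adgre1, Lyz2, Ptprc and the genes given as below background on some or all arrays were named after their values were seen. Fits were tested on simulated data. Figures used matplotlib 3.10.9. A fit with the slide or the scan as a block was not made, since neither is known here.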

Additional observations from a re-analysis of the deposited data

How the results depend on the processing

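With the replicate block, where every probe had the same standard error, 278 probes were called, against 0 without it. The number was 0 under each of the other alternatives: the block with quantile normalization, the block with arrays centred on the tested probes, either scaling alone, other background filters, an offset of 50% of the median, the series table, a trended robust prior, the methods' t-test (242 probes at an unadjusted p under 0.05), leaving out each array, and leaving out both arrays numbered 1. The block changed the call of H2-Ab1 and no call of the 5 genes C1qa, C1qb, C1qc, Mrc1 and Ctss, of which 0 were called under any of these 19 alternatives, the smallest adjusted p being 0.377 for Ctss without both arrays numbered 1. The median difference of the 5 genes was -0.13, between -0.19 and -0.12 under the other alternatives and between -0.23 and 0.020 with 1 array left out. Leaving out 1 array moved C1qa between -0.38 and 0.0073 (positive without the Id2+/+ array numbered 1), C1qb between -0.44 and 0.21 (positive without the Id2-/- array numbered 2 or 3 or the Id2+/+ array numbered 1), C1qc between -0.23 and 0.0486 (positive without the Id2-/- array numbered 1 or the Id2+/+ array numbered 3), Mrc1 between -0.50 and 0.22 (positive without the Id2-/- array numbered 1 or the Id2+/+ array numbered 2 or 3) and Ctss between -0.72 and 0.0522 (positive without the Id2-/- array numbered 1 or the Id2+/+ array numbered 3). Such a fit keeps the same-numbered partner, so the shift between array numbers enters its value.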
